A study of Rattus norvegicus with 18 samples.

Results

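Costimulatory and coinhibitory molecules are the receptors on T cells, and their ligands on antigen-presenting cells, that set how strongly a T cell responds to the antigen it has recognised. A list of 10 such genes was looked up in the platform annotation, and each gene was represented by the probe set with its highest mean signal over the 18 arrays. Of these, 5 genes were found, out of 14217 genes with a probe set: the receptors Cd28, Ctla4 and Icos and the ligands Cd80 and Cd86. The receptors Pdcd1, Lag3, Havcr2 and Tigit and the ligand Cd274 had no probe set with that single symbol and were not analysed here, so the inhibitory side is represented by Ctla4 alone. The genes were chosen by name, with earlier results of these data known. Icos has 3 probe sets and Cd86 has 2. The other genes have 1 each.

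The samples came from a rat model in which a Wistar Furth (WF) heart was transplanted into the abdomen of an ACI recipient, a pairing in which the class I antigens differ. All animals were male. Recipients were left untreated, were fed cyclosporine, a calcineurin inhibitor, at 10 mg/kg/day on days 0 to 2, a course the protocols describe as too low to be therapeutic, or were given the same cyclosporine together with an allochimeric class I peptide named [a1h1/u]-RT1.Aa, injected at 1 mg/kg into the portal vein at transplantation. Heart graft and T cells were each measured on days 1, 3 and 7 with 1 array per combination of tissue, treatment and day, which gives 9 arrays of each tissue. Every recipient, untreated ones included, carried an allograft, and no portal injection of carrier is described for the cyclosporine group. Wistar Furth is the strain given for every sample, T cells included, so it is not settled here from which strain, or from which organ, the T cells were taken. Whether graft and T cells of a combination came from 1 animal, and whether animals were pooled, is not stated.

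CD28 is carried by resting T cells and binds CD80 and CD86 on dendritic cells, macrophages and B cells; its signal raises interleukin-2 production and survival. CTLA-4 appears after activation and on regulatory T cells, binds the same ligands more tightly, and removes them from the presenting cell. ICOS is a relative of CD28 that is induced on activated T cells and has a ligand of its own, encoded by Icoslg. In transplantation, blocking CD80 and CD86 with soluble CTLA-4 is an established way to restrain rejection.

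In the RefSeq gene table for rat assembly GRCr8, Cd28, Ctla4 and Icos lie in a row on chromosome 9, with 0 protein-coding genes between Cd28 and Ctla4 and 0 between Ctla4 and Icos. Cd80 and Cd86 both lie on chromosome 11, with 24 protein-coding genes between them. The windows from 250 bases before to 50 bases after the start are shown for the 3 receptor genes, since these neighbours gave unlike values. The window of Cd86 is also shown, as its representing probe set had the largest change of the members. They come from RefSeq, assembly GRCr8, and are written 5′ to 3′ in the direction of the gene. Capitals mark matches to GGAAA, the core of the sites bound by the calcineurin-dependent factor NFAT, or to its reverse complement TTTCC.
Cd28, chr9:69660066-69660365, plus strand: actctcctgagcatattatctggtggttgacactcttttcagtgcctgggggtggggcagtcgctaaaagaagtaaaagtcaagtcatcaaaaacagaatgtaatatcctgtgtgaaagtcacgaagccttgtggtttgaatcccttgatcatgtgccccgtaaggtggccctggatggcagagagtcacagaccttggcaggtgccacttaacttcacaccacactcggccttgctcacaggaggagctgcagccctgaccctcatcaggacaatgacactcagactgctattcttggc
Ctla4, chr9:69813171-69813470, plus strand: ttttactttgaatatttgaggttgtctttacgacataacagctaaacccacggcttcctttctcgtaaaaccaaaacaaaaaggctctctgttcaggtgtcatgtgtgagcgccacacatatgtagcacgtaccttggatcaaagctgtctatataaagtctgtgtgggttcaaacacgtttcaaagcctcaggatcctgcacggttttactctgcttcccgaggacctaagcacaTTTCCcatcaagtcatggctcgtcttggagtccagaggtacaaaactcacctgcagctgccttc
Icos, chr9:69877549-69877848, plus strand: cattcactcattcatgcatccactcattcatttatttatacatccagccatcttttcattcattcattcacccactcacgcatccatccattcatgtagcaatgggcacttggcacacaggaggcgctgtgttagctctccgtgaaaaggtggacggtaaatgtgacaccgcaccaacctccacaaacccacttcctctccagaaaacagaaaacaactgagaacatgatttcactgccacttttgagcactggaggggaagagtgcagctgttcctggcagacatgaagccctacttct
Cd86, chr11:77669031-77669330, plus strand: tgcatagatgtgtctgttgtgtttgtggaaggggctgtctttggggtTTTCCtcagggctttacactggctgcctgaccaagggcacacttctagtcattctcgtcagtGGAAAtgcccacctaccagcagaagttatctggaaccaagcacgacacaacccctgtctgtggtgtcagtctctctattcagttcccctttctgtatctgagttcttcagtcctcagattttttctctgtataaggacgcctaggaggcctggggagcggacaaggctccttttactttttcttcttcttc
The core was found 1 time in the Ctla4 window and 2 times in the Cd86 window, and 0 times in those of Cd28 and Icos. A word this short is common: 62.7% of 33469 rat promoter windows of this length hold it on either strand. TGANTCA, bound by AP-1, and TTCNNNGAA, the interferon gamma activated site, occur in 7.33% and 8.87% of all windows and in none of these 4. RefSeq lists 2 windows for Cd80, which are not shown: 1 holds 1 match to TTCNNNGAA and the other 1 match to the GGAAA core. These are matches of letters and not measured binding.

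Before the results, 1 array has to be described. The untreated day 1 T cell array carried a summed B cell marker signal of 27844, against 8575 to 18912 on the other 8 T cell arrays. Its dendritic cell marker sum was 6689 against 2720 to 3515, and its T cell marker sum was the lowest at 62810 against 80389 to 90515. Each T cell comparison whose estimate uses its value is therefore also given without it. Other comparisons, such as T cells from day 3 to day 7, use it only through the residual spread, and most are given only with it. Cardiomyocyte markers summed to 64473 to 82080 in the grafts and to 313 to 528 in the T cell arrays, and no marker of any cell type list was at 0 on any array. The T cell arrays also carried macrophage and monocyte transcripts, with sums of 27055 to 44655 against 16595 to 17302 in the day 1 grafts. Median signal per array ran from 195 to 231.

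**Figure D1:**
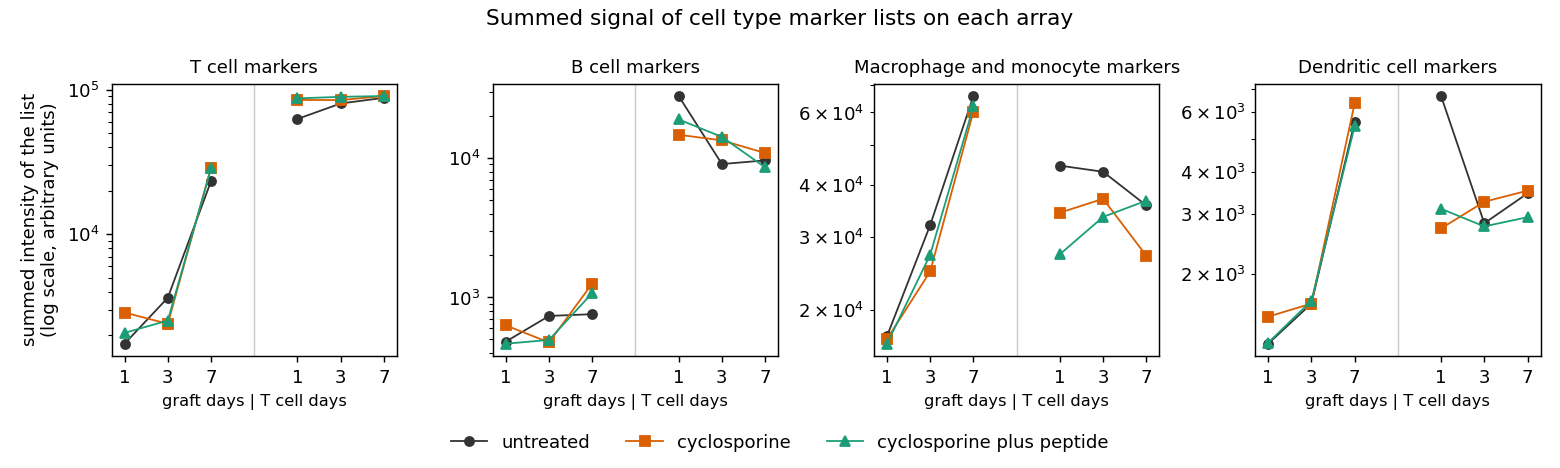
Summed intensity of 4 cell type marker lists (vertical, log scale, arbitrary units) on each of the 18 arrays by day after transplantation (horizontal), grafts on the left and T cells on the right of each panel; colour and symbol give the treatment, and each point is 1 array. Among the graft arrays all 4 sums are highest on day 7, and the untreated day 1 T cell array stands apart in the B cell and dendritic cell panels.

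All 5 genes were higher in grafts on day 7 than on day 1, by a factor of 1.55 to 7.65. Cd86 and Icos moved furthest, Ctla4 followed, and Cd28 and Cd80 moved least. The T cell arrays showed no change over time that passed the test in any of the 5, and no treatment difference passed it in either tissue. Differences are log2 differences of intensity + 16 with the SE of a limma fit, averaged over the 3 treatments for a comparison of days and over the 3 days for a comparison of treatments. A gene was called at an adjusted p below 0.05 after Benjamini-Hochberg adjustment over all 31042 probe sets. The constant of 16 makes the changes of weak signals look smaller than they were. An intensity is not a per-length level, so levels of different genes are not compared.

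**Figure D2:**
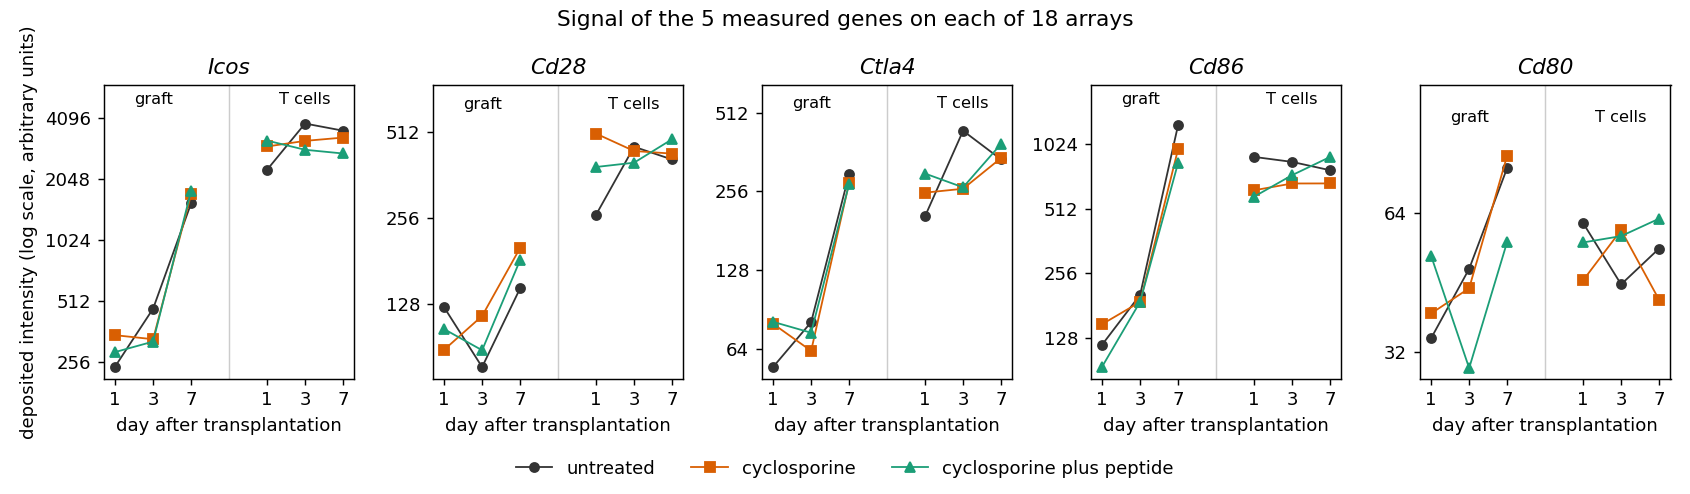
Deposited intensity (vertical, log scale, arbitrary units) of Icos, Cd28, Ctla4, Cd86 and Cd80 by day after transplantation (horizontal), grafts on the left and T cells on the right of each panel; each point is 1 array, and colour and symbol give the treatment. The 3 day 7 grafts lie above the 6 earlier grafts for each gene, by the smallest margin for Cd80, with 55.5 on day 7 beside 51.7 on day 1.

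Icos, the inducible costimulatory receptor, gave intensities of 243.9, 348.2 and 287.5 in the day 1 grafts of untreated, cyclosporine and cyclosporine plus peptide recipients. On day 3 the same groups gave 470.5, 332.6 and 323.8. On day 7 they gave 1553, 1718 and 1789. The 3 day 7 grafts were therefore far above all 6 earlier ones, with little spread between treatments. The rise from day 1 to day 7 was 2.47 ± 0.16 on the log2 scale, or 5.55-fold, with a limma adjusted p of 6.33e-06. Both other Icos probe sets rose by 2.71. By rank within its array, Icos stood at percentiles 52.8 to 59.7 in day 1 grafts and 88.2 to 90.0 in day 7 grafts.

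Ctla4, the inhibitory receptor, gave intensities of 54.4, 79.6 and 81.0 in the untreated, cyclosporine and cyclosporine plus peptide grafts of day 1. It gave 80.8, 62.7 and 73.6 on day 3 and 297.7, 275.8 and 273.1 on day 7. Its first 2 time points overlapped and the third stood clear, so the rise fell between days 3 and 7. From day 1 to day 7 Ctla4 rose by 1.78 ± 0.15, or 3.44-fold, with a limma adjusted p of 2.29e-05. From day 1 to day 3 the difference was 0.02 ± 0.15, with a 95% interval of -0.32 to 0.37.

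Cd28, the constitutive costimulatory receptor, had a smaller range. Its intensities were 124.2, 88.0 and 104.1 on day 1, 76.6, 115.8 and 87.7 on day 3, and 144.8, 200.9 and 182.1 on day 7, in the same order of treatments. The day 7 grafts were again the highest 3, but the untreated one exceeded the untreated day 1 graft by only 0.20 on the log2 scale, against 1.06 with cyclosporine and 0.72 with cyclosporine plus peptide. The mean rise was 0.66 ± 0.18, or 1.58-fold, with a limma adjusted p of 0.0131. It no longer passed without the cyclosporine arrays (0.46) or without the cyclosporine plus peptide arrays (0.63).

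Cd86, the ligand that CD28 and CTLA-4 share with CD80, gave 118.8, 148.1 and 93.8 on day 1 in untreated, cyclosporine and cyclosporine plus peptide grafts. It gave 203.2, 188.1 and 188.5 on day 3 and 1263, 975.9 and 840.5 on day 7. The 3 days did not overlap at either step. The rise from day 1 to day 7 was 2.94 ± 0.14, or 7.65-fold, with a limma adjusted p of 1.34e-06. The second Cd86 probe set rose by 2.16, less than any Icos probe set. Cd86 was also the 1 member that was called between days 1 and 3, by 0.64 ± 0.14 with a limma adjusted p of 0.0157. That early call depended on the probe set and on the arrays: the second probe set gave 0.40 with an adjusted p of 0.133, and without the cyclosporine plus peptide arrays the difference was 0.51 and was not called.

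Cd80, the other shared ligand, was weak throughout. Graft intensities were 34.3, 38.8 and 51.7 on day 1, 48.5, 44.0 and 29.6 on day 3, and 80.2, 85.3 and 55.5 on day 7, at percentiles 7.3 to 28.3 of their arrays. The highest day 1 graft and the lowest day 7 graft, both from cyclosporine plus peptide recipients, lay 0.08 apart on the log2 scale. The mean rise was 0.63 ± 0.20, or 1.55-fold, with a limma adjusted p of 0.0258. Without the untreated arrays it was 0.48, and without the cyclosporine arrays 0.51, and neither was called.

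From day 1 to day 7, 5 of 5 members were called higher in the grafts, where 22.6% of all probe sets were. Their median difference was 1.78, against -0.02 over all probe sets. From day 3 to day 7, 5 of 5 were called higher with a background of 18.8%, from 0.66 for Cd80 to 2.30 for Cd86. Of these calls, that of Cd28 was lost without the cyclosporine plus peptide arrays (0.76, limma adjusted p of 0.0611) and that of Cd80 without the cyclosporine arrays (0.61, 0.145). From day 1 to day 3, 1 of 5 was called higher with a background of 9.27%. Without the cyclosporine arrays the day 7 count fell to 3, the called genes then being Cd86, Icos and Ctla4. The cell type markers moved over the same days: the T cell marker sum was 1747 to 2873 on day 1, 2399 to 3635 on day 3 and 23315 to 28934 on day 7. The macrophage and monocyte sum was 16595 to 17302, 24800 to 32087 and 60314 to 65754 on these days, and the dendritic cell sum 1242 to 1493, 1631 to 1663 and 5440 to 6358. Each of the 3 sums was higher on every day 7 graft than on any earlier one. All 13 measured T cell markers were called higher on day 7 with a median of 3.06, as were 9 of 10 macrophage markers with a median of 1.95, 4 of 4 dendritic cell markers with 1.91 and 5 of 5 natural killer cell markers with 2.52. Of 3 measured regulatory T cell markers 2 were called higher, with Il2ra, a receptor chain also found on other activated T cells, at 1.22 ± 0.10; Foxp3 was not analysed here. In whole grafts, more cells of a type and more RNA per cell cannot be told apart, and the part of these markers in the members' rise was not tested. The ratio of 3′ to 5′ actin signal, a measure of RNA length, also moved, from 1.84 to 2.44 on day 1 to 1.41 to 1.43 on day 7, while the same ratio for GAPDH was 1.495 to 1.574 on day 1 and 1.513 to 1.542 on day 7. The part of the actin ratio was not tested.

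**Figure D3:**
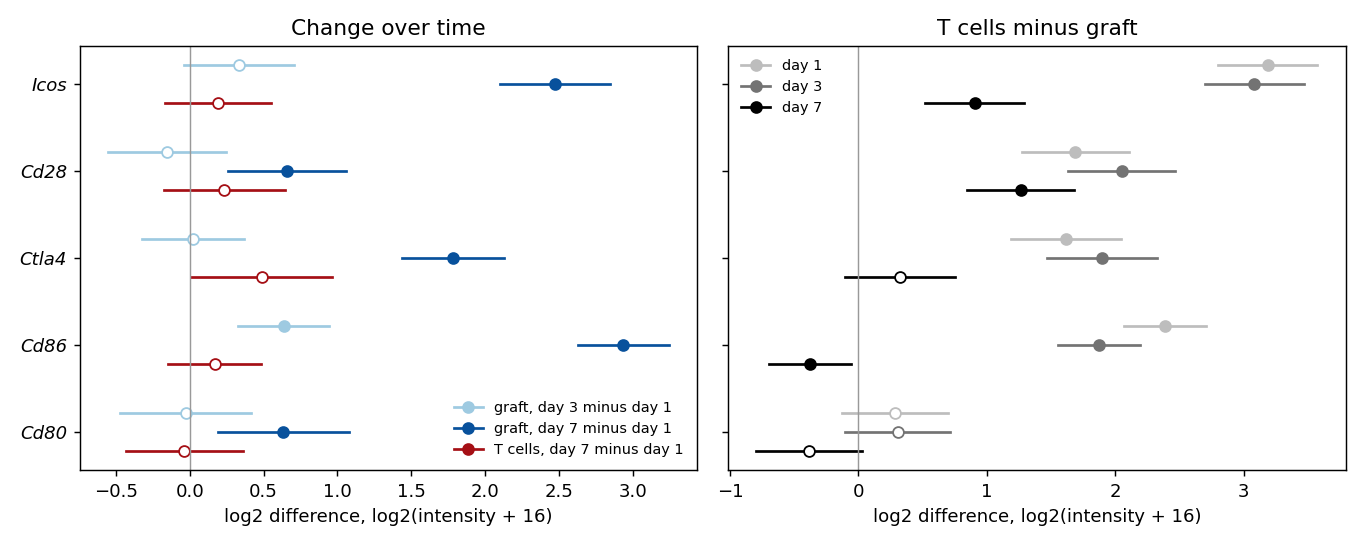
Log2 differences of intensity + 16 (horizontal) for each gene (vertical), over time on the left and between T cells and grafts of the same day on the right; points are limma estimates, lines 95% intervals, and filled points passed an adjusted p of 0.05. With 1 probe set per gene, the graft rise to day 7 is largest for Cd86 at 2.94. The T cell excess of Icos falls from 3.19 on day 1 to 0.90 on day 7.

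In the T cell arrays the days overlapped more than in the grafts. Icos gave 2274, 2961 and 3166 on day 1, 3842, 3156 and 2853 on day 3, and 3543, 3276 and 2735 on day 7, in the order untreated, cyclosporine, cyclosporine plus peptide. Ctla4 gave 205.6, 253.0 and 299.3, then 436.5, 261.8 and 265.1, then 339.1, 343.3 and 388.8. Ctla4 on day 7 thus lay above Ctla4 on day 1 on every array, and its difference of 0.49 ± 0.21 was the largest of the 5, with a limma adjusted p of 0.259. Cd28 gave 262.9, 507.1 and 387.1 on day 1, 456.0, 440.6 and 400.8 on day 3, and 411.3, 431.4 and 484.5 on day 7. Its lowest value was on the untreated day 1 array, the one with the lowest T cell marker sum. Cd86 gave 895.3, 625.3 and 583.7, then 848.5, 672.7 and 735.7, then 775.7, 673.1 and 894.8, so its days overlapped. Cd80 stayed between 41.6 and 62.3.

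In T cells, 0 of 5 members were called from day 1 to day 3, from day 1 to day 7 or from day 3 to day 7, where 0%, 0.322% and 0% of all probe sets were called in either direction. At an unadjusted p below 0.05, limma gave 2238, 5770 and 1700 probe sets. The 95% intervals of the day 7 minus day 1 differences ran from -0.17 to 0.55 for Icos and from -0.18 to 0.65 for Cd28. Without the untreated day 1 array, the day 7 minus day 1 difference in T cells was -0.05 for Icos, 0.00 for Cd28, 0.26 for Ctla4, 0.31 for Cd86 and 0.07 for Cd80. The day 3 minus day 1 difference was then between -0.03 for Cd28 and 0.26 for Cd86, and 0 of 5 members were called in either comparison.

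Whether the time course differed between graft and T cells was tested as an interaction over all 18 arrays. The day 7 minus day 1 difference was larger in grafts by 2.77 ± 0.21 for Cd86 (limma adjusted p of 1.17e-06), by 2.28 ± 0.25 for Icos (2.29e-05) and by 1.29 ± 0.28 for Ctla4 (0.00299). It was 0.67 ± 0.27 for Cd80 (adjusted p of 0.07) and 0.43 ± 0.27 for Cd28 (0.256), which did not pass. Thus 3 of 5 members were called higher, with a background of 17.3%. For Cd28 the value rested on single treatments: it was 0.85 and called without the untreated arrays, and 0.00 without the cyclosporine arrays (limma adjusted p of 0.994). Cd80 was called without the cyclosporine plus peptide arrays (1.03). Without the untreated day 1 T cell array the same 3 genes were called, with Cd86 at 2.63, Icos at 2.52 and Ctla4 at 1.52, while Cd28 stood at 0.66 and Cd80 at 0.56.

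On day 1, T cells exceeded grafts in Icos by 3.19 ± 0.18, or 9.11-fold, in Cd86 by 2.39 ± 0.15, in Cd28 by 1.69 ± 0.19 and in Ctla4 by 1.62 ± 0.20, so 4 of 5 were called higher with a background of 37.8%. Without the untreated day 1 T cell array these were 3.43, 2.25, 1.92 and 1.85, all 4 called, and Cd80 stood at 0.18. The day 1 T cell arrays also held more signal of presenting cells than the day 1 grafts. The B cell marker sum was 14681 to 27844 against 466 to 631, and the dendritic cell sum 2720 to 6689 against 1242 to 1493. For macrophages and monocytes it was 27280 to 44655 against 16595 to 17302. The part of these cells in the Cd86 difference was not tested. On day 3 the same 4 genes were called, from 1.87 for Cd86 to 3.08 for Icos, with a background of 39.2%. On day 7 the difference was 1.26 ± 0.19 for Cd28 and 0.90 ± 0.18 for Icos, both called, with limma adjusted p of 6.79e-05 and 0.000606. Ctla4 at 0.32 ± 0.20, with an interval of -0.11 to 0.75, did not pass. Cd86 had the opposite sign, at -0.38 ± 0.15, so it was lower in T cells than in grafts, with a limma adjusted p of 0.0402. Cd80 was at -0.38 ± 0.19 and did not pass, nor did it on days 1 and 3. Under some alternatives these calls changed: without the cyclosporine plus peptide arrays Cd80 was -0.64 on day 7 (limma adjusted p of 0.023), after centring it was 0.45 on day 3 (0.0402), and without the untreated arrays Ctla4 was 0.39 on day 7 (0.0288). On day 7, 3 of 5 members were called in either direction, with a background of 61.9%.

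These tissue differences stand beside a shift of all probe sets, whose median was 0.10 on day 1, 0.15 on day 3 and 0.13 on day 7 as deposited, and 0.17, 0.30 and 0.23 after centring each array on its median. The 2 called day 7 differences of Icos and Cd28 are several times this shift. The day 7 call of Cd86 is not firm. The difference was -0.34 after quantile normalization, -0.28 after centring, -0.22 without the untreated arrays and -0.30 without the cyclosporine arrays. It was called in none of these, nor without an intensity trend in the limma fit (-0.38, adjusted p of 0.0531). The second Cd86 probe set gave -0.47 with a limma adjusted p of 0.0401.

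Since T cell marker signal rose in the grafts, the members were also set against the mean log2 signal of the 13 T cell markers of the same array. In the day 7 grafts Cd28 lay at -2.94 to -3.07 relative to this mean, and in the day 7 T cells at -3.50 to -3.70. The T cell minus graft difference on day 7, relative to the list, was -0.59 ± 0.28 for Cd28, -0.95 ± 0.25 for Icos, -1.54 ± 0.28 for Ctla4, -2.23 ± 0.26 for Cd86 and -2.24 ± 0.31 for Cd80. All 5 of 5 were called in this comparison, but so were 95.5% of all probe sets, since the T cell list itself is higher in T cells; the median of all probe sets was -1.72. The call of Cd28 was lost with a pseudocount of 1 (-0.54), without the cyclosporine arrays (-0.54) and without the cyclosporine plus peptide arrays (-0.67). Only the order is therefore described. The subtraction takes the same amount from every probe set of an array. The order of these differences is thus that of the plain day 7 differences given above, and it adds no evidence to them. Cd28 and Icos lay closer to the T cell list than the median probe set did, and Ctla4 was near that median. Cd86 and Cd80 lay further away. Cd80 was weak in both tissues, and without the subtraction its day 7 difference of -0.38 did not pass. The day 7 call of Cd86 without the subtraction was not firm. The order is therefore not read as a division between receptors and ligands.

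No treatment difference was called among the members. For cyclosporine minus untreated in the grafts, the 5 differences ran from -0.06 for Cd86 to 0.17 for Cd28, 0 of 5 were called, and the background was 0%. For cyclosporine plus peptide minus untreated they ran from -0.32 ± 0.14 for Cd86 (limma adjusted p of 0.37) to 0.08 for Cd28, with 0 of 5 and a background of 0%. On day 7 alone, Cd86 was 0.58 lower with cyclosporine plus peptide and 0.37 lower with cyclosporine than in the untreated graft, a comparison of single arrays with no test. For cyclosporine plus peptide minus cyclosporine the largest was -0.26 ± 0.14 for Cd86, with 0 of 5 and a background of 0%. The widest 95% interval among these 15 graft differences reached -0.64, for Cd80. At an unadjusted p below 0.05, limma gave 2953, 4001 and 1545 probe sets in these 3 comparisons.

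In T cells, cyclosporine minus untreated ran from -0.35 ± 0.14 for Cd86 (limma adjusted p of 0.488) to 0.31 for Cd28. Cyclosporine plus peptide minus untreated ran from -0.20 for Cd86 to 0.19 for Cd28, and cyclosporine plus peptide minus cyclosporine from -0.12 for Cd28 to 0.21 for Cd80. In each of the 3 comparisons 0 of 5 members were called and the background was 0%, with 3007, 5691 and 1406 probe sets at an unadjusted p below 0.05 in limma. Without the untreated day 1 array, cyclosporine plus peptide minus untreated was -0.04 for Cd28, -0.23 for Ctla4 (0.00 with it), -0.35 for Icos (-0.11 with it), -0.06 for Cd86 and 0.22 for Cd80. Cyclosporine minus untreated then ran from -0.37 for Ctla4 to 0.07 for Cd28, and 0 of 5 members were called in either. The estimated difference between both cyclosporine groups does not use that array's value, but its test does, through the residual spread. Without the array, 0 of 5 members and 2 of all probe sets were called in that comparison. Without all day 1 arrays, Icos was called lower in T cells given cyclosporine plus peptide than in untreated ones, by -0.40 with a limma adjusted p of 0.0256, and 2034 probe sets were called in that comparison, where 0 were called with day 1 included.

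A pattern over days 1 and 3 was noticed in the values and is given as a description. For Icos, the untreated array was the lowest of its treatment trio on day 1 and the highest on day 3, in grafts (243.9, then 470.5) and in T cells (2274, then 3842). The other Icos probe sets had the same order in both tissues. Ctla4 had the same order as well: the untreated array was lowest on day 1 (54.4 in graft, 205.6 in T cells) and highest on day 3 (80.8 and 436.5). From day 1 to day 3, Icos thus moved by 0.90 in untreated grafts against -0.06 and 0.16 in treated ones, and by 0.75 in untreated T cells against 0.09 and -0.15. Set against both treated groups over both tissues, the untreated day 3 minus day 1 difference was larger by 0.82 ± 0.15 for Icos and by 0.87 ± 0.18 for Ctla4. The fit takes graft and T cells of a combination as independent. If they came from 1 animal, these SEs may be too small and the tissues are not separate evidence. Neither Icos nor Ctla4 passed adjustment over all probe sets, with limma adjusted p of 0.506 and 0.565. For Cd28, Cd80 and Cd86 the same difference was 0.08, 0.04 and -0.10. In that comparison 0 of 5 were called, with a background of 0% and 2190 probe sets at an unadjusted p below 0.05. Without the untreated day 1 T cell array, Icos stood at 0.71 and Ctla4 at 0.83, while Cd28 moved to -0.61, Cd80 to 0.46 and Cd86 to 0.26, with 0 of 5 called. The graft T cell marker sum moved the same way. In the untreated graft it was the lowest of its trio on day 1 (1747) and the highest on day 3 (3635). On the T cell arrays the untreated sum was the lowest of its trio on both days, at 62810 and then 80389. The part of these sums in the pattern was not tested.

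The rest of the pathway was followed in lists of genes by role. Among other B7 and CD28 family genes, 3 of 4 measured were called higher in day 7 than in day 1 grafts and 0 lower. Their median was 0.95, against -0.02 over all probe sets. In this comparison 22.6% of all probe sets were called higher, which is the background for each list below. Icoslg, the ligand of ICOS, rose by 2.04 ± 0.18 and Vsir, the inhibitory receptor VISTA, by 1.57 ± 0.09, while Cd276 rose by 0.32 ± 0.07 and Vtcn1 was at -0.07 ± 0.21. Both Icos and its ligand were thus called higher in the same grafts.

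Of the costimulatory genes of the tumour necrosis factor family, 7 of 7 were called higher, with a median of 1.80 and a background of 22.6%. Tnfrsf14, which encodes the receptor HVEM, rose by 5.07 ± 0.36 and Tnfrsf9, which encodes the activation-induced receptor 4-1BB, by 3.76 ± 0.29. Cd40, through which T cells stimulate presenting cells, rose by 3.53 ± 0.14, and Cd40lg, its T cell ligand, by 0.77 ± 0.24. Tnfrsf4 (OX40) rose by 1.80 and its ligand Tnfsf4 by 0.83, and the 4-1BB ligand Tnfsf9 rose by 0.60. Receptors and their ligands were not tested against each other.

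Of the ligands and partners of TIGIT, TIM-3, LAG-3 and related receptors, 5 of 8 were called higher and 0 lower. Their median was 0.40, and the background was 22.6% called higher. Cd96, which competes with TIGIT for Pvr, rose by 2.91 ± 0.12 and Pvr itself by 0.45 ± 0.11. Ceacam1 rose by 0.87 ± 0.09 and Cd200r1, the inhibitory receptor of CD200, by 0.65 ± 0.16, whereas Lgals9, which encodes galectin-9, was at 0.05 ± 0.10, Fgl1 at 0.33 ± 0.16 and Cd200 at -0.17 ± 0.12, none of them called. In the CD2 and SLAM family 3 of 3 rose, with Cd2 at 2.78 ± 0.13, Sh2d1a, which encodes the adaptor SAP, at 2.33 ± 0.16 and Cd48 at 0.61 ± 0.05.

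Among genes of signalling below CD28 and the inhibitory receptors, 7 of 10 were called higher and 1 lower. Their median was 1.33, and the background was 22.6% called higher. The 4 largest rises were those of genes at work mainly in blood cells: Lck, the kinase that starts T cell receptor signalling, rose by 3.06 ± 0.16, Pik3cd by 2.43 ± 0.14, Vav1 by 2.24 ± 0.11 and Ptpn6, the phosphatase SHP-1, by 2.08 ± 0.12. Ptpn11, the phosphatase SHP-2, was at -0.16 ± 0.07 and was not called, and Ppp2ca, a phosphatase catalytic subunit, fell by 0.29 ± 0.06. Lck and Cd2 also belong to the T cell marker list. Of the interferon gamma response genes, 10 of 10 rose and their median was 3.44; the tryptophan-degrading enzyme Ido1 was at 5.36 ± 0.15, the ubiquitin-like Ubd at 6.35 ± 0.40, the signalling inhibitor Socs1 at 4.16 ± 0.33 and Ciita, the activator of class II genes, at 4.38 ± 0.24. In T cells, 0 genes of any of these 6 lists were called between day 1 and day 7, in a comparison that called 0.322% of all probe sets.

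**Figure D4:**
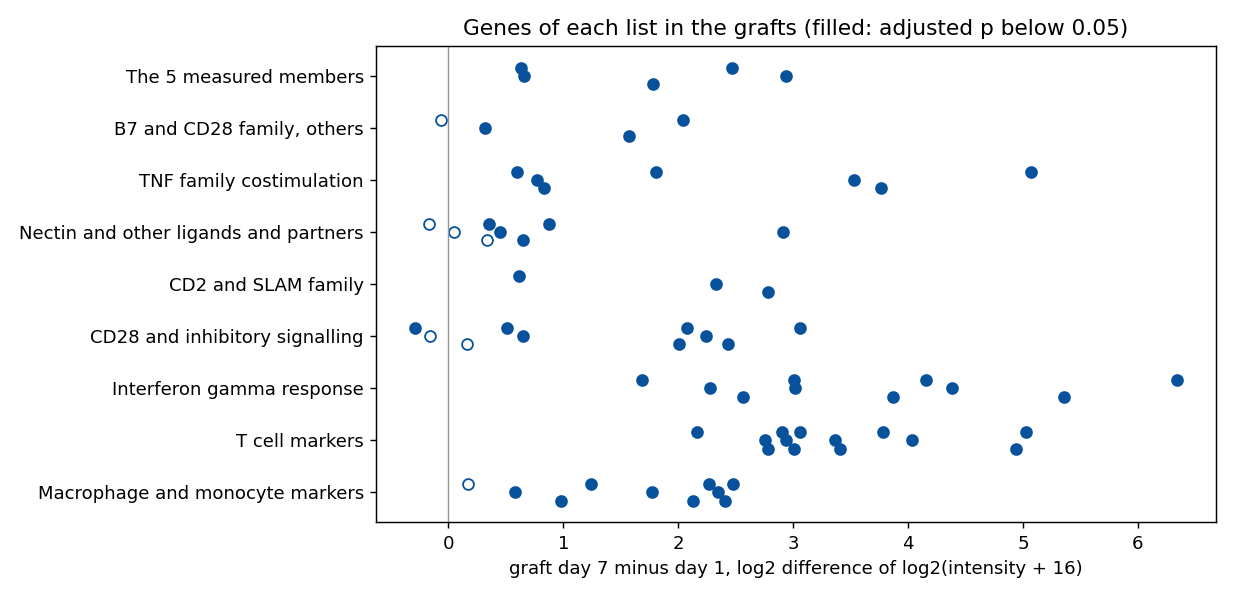
Day 7 minus day 1 log2 difference of intensity + 16 in the grafts (horizontal) for each measured gene of the lists named on the vertical axis; each point is 1 gene, filled where the limma adjusted p was below 0.05, and points are offset vertically only to separate them. The 5 members lie between 0.63 and 2.94, and the interferon gamma response genes reach 6.35 (Ubd).

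The genes whose signal ran most in parallel with each member over the 9 graft arrays are given by Pearson's r on the log2 scale among 14214 other genes, as a description: these arrays share 3 days and 3 treatments, and any gene that rises by day 7 correlates with any other. Icos ran with Chd1l (0.999), Lat, the adaptor of the T cell receptor (0.9985), and Tnfrsf14 (0.998). Ctla4 ran with Cd8a, the CD8 coreceptor chain (0.994), Btaf1 and Elmo1. Cd86 ran with Rbpj, the DNA-binding partner of Notch (0.9975), Anxa4 and Prr15. The closest genes to Cd28 were LOC102554233 (0.985), Polr2d (0.973) and Eif4a3 (0.947), and those to Cd80 were Tmem81 (0.969), Ints2 (0.968) and Hat1 (0.965), lower values than for the other 3 members.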

How the data were processed

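RNA of 18 samples was labelled and hybridised to rat expression arrays, 1 per combination of tissue, treatment and day. The values deposited by the authors are linear intensities, 1 for each probe set on each array. Their software and normalization were not given in the sources used here, and 0.138% of the intensities were below 0. These were set to 0, and log2(intensity + 16) was used with no further scaling. Of 31042 non-control probe sets, the platform annotation gives 1 gene symbol to 20826, several to 436 and none to 9780, and names were taken only from those with 1. No filter on low signal was applied, so all 5 measured members were tested. Tests used limma 3.58.1 (R 4.3.3) with an intensity trend in eBayes and Benjamini-Hochberg adjustment. Within a tissue, treatment and day were fitted to 9 arrays with 4 residual degrees of freedom. Tissues were compared over 18 arrays with 8. As no combination has a second array, the residual spread is how unevenly treatments differ over days, plus array noise, and p-values cover only the spread between these samples, part of which may be technical. The fits were checked on simulated data. Alternatives were quantile normalization, centring on array medians, pseudocounts of 1 and 64, a filter on low signal, no trend, other probe sets, and leaving out each treatment or day. The comparison of untreated with treated arrays from day 1 to day 3, and leaving out the untreated day 1 T cell array, were added after the values were seen. The members and lists were chosen with earlier results of these data known. From each pathway list up to 4 genes are named, those with the largest called differences between day 7 and day 1 grafts, plus every gene of the B7 and CD28 list, and for likeness the 3 genes with the highest Pearson's r. Outside this rule, Cd40lg, Tnfsf4, Tnfsf9, Lgals9, Fgl1, Cd200, Ptpn11, Ppp2ca and Il2ra were named after their values were seen.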

Additional observations from a re-analysis of the deposited data

Results flagged for a closer look

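For 3 genes the change from day 1 to day 7 differed between grafts and T cells by a test of the difference itself (limma interaction over 18 arrays). The excess in grafts was 2.77 for Cd86, 2.28 for Icos and 1.29 for Ctla4 on the log2 scale. In the same test 17.3% of all probe sets were called higher. All 13 measured T cell markers were also called higher, with a median of 2.98. So were 8 of 10 macrophage and monocyte markers with a median of 2.07, and 4 of 4 dendritic cell markers with 2.47. None of these 3 marker lists had a gene called lower. The excess is thus not particular to these genes.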

How the results depend on the processing

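The members had 30 called differences in the planned comparisons. Over their 310 alternatives, 294 kept direction and call, 16 lost the call and 0 changed sign. A further 6 differences that were not called passed under an alternative. The count of kept calls is raised by its make-up. For Cd28, Ctla4 and Cd80, with 1 probe set each, the alternative of a second probe set repeats the main value. The 30 also include 5 of the comparison relative to the T cell list, where 95.5% of all probe sets were called. The number of members called from day 1 to day 3 in grafts was 1, and it was 0 with second probe sets and between 0 and 1 when a treatment was left out. From day 1 to day 7 it was 5, and between 3 and 4 when a treatment was left out. For cyclosporine plus peptide minus untreated T cells it was 0, and between 0 and 1 when a day was left out. Leaving out a treatment or day leaves 2 arrays per level, and the cause of these changes was not tested. Counts over all probe sets moved more: 5209 for grafts from day 1 to day 3 became 3286 without a trend and 1409 to 3006 with a treatment left out, 12332 for grafts from day 3 to day 7 became 7845 without the cyclosporine arrays, 10859 for the interaction became 7107 without them, and 100 for T cells from day 1 to day 7 became 208 with centring and 19 without the untreated day 1 array. Without a trend, or with any 1 treatment left out, that T cell count was 0. For cyclosporine minus untreated grafts, 0 became 1 with centring or a pseudocount of 1 and 4 without day 7. For cyclosporine plus peptide minus untreated, 0 became 1 in grafts without day 7, and in T cells 1 with centring and 2034 without day 1. For cyclosporine plus peptide minus cyclosporine in T cells, 0 became 20 without day 1 and 2 without the untreated day 1 array. The fits within a tissue already set arrays of the same treatment or the same day against each other; the labels give no replicate numbers for a further block. Precision is limited by the small number of arrays, and Cd80 was too weak for small changes to be seen.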
